A study of Homo sapiens with 6 samples.

Results

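Retinoic acid, the hormone made from vitamin A, is produced inside cells from retinol by retinol dehydrogenases and then retinaldehyde dehydrogenases. It is carried to the nucleus by binding proteins, where it acts on heterodimers of a retinoic acid receptor (RAR) with a retinoid X receptor (RXR). Enzymes of the CYP26 family of cytochromes P450 oxidise it and so end the signal. In the intestine the pathway is known for its part in epithelial differentiation and in mucosal immunity, and CYP26A1 and RARB are textbook genes that retinoic acid induces through RAR binding sites in their own promoters.

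The genes described here were 10 genes of this pathway, CYP26A1, CYP26B1, RARA, RARB, RARG, RXRA, RXRB, CRABP2, DHRS3 and RDH10, chosen by name from the 31016 genes of the deposited table. Each name matched 1 gene. The set was proposed with earlier results of the same comparison known, so the differences given for its members are descriptions and no test is read from them.

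The RNA came from DLD-1 cells, an established human colorectal adenocarcinoma line, and poly(A) RNA was sequenced in 6 libraries. A group of 3 libraries (TGFb 1 to 3) was from cells given TGF-β, a growth factor that pushes epithelial cells towards a mesenchymal state. The other 3 libraries (TGFb_TFA 1 to 3) came from cells that also received TFA, a flavone extract of the plant Abelmoschus manihot. All cells therefore carried the TGF-β treatment, and no library of cells without it is part of the series as used here. The labels give 24, 25 and 26 hours for replicates 1, 2 and 3 in both groups, while the series' design text gives 24 hours for TGF-β, and no dose of either agent. Nothing in the labels says whether the replicates were separate cultures, so the spread between them may be technical. The only comparison is cells with added TFA against those on TGF-β only, and the study asked whether TFA counters the malignant behaviour of these cells.

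Library totals ran from 60361756 to 68745953 estimated counts. Of 11 markers of colon epithelium, 8 were at 9.29 FPKM or more in every library, among them EPCAM, a surface protein of epithelial cells, at 186 to 210.3 FPKM. The other 3 were near absent, with VIL1 at 0.0356 to 0.302 FPKM, GPA33 at 0.0455 to 0.128 FPKM and LGALS4 at 0.0392 to 0.170 FPKM. FPKM is the deposited level per length of transcript and per depth of library, the scale on which genes can be compared with each other. A pair of libraries stood apart. In TGFb_TFA 3 the longest 10% of tested genes lay at a median of -0.33 (log2) from their mean over the 6 libraries and the shortest 10% at 0.36, against -0.16 to 0.20 in the other 5 libraries. In TGFb 1, 338 genes had no count while all other 5 libraries had at least 10, against 24 to 45 such genes in each of the others.

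A retinoic acid response element is commonly a pair of direct repeats separated by 5 bases, and the letters shared by 2 members show it. The motif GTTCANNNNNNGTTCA was searched on both strands of RefSeq promoter windows (GRCh38.p14, 250 bases before to 50 after each start site), which were found for 9 of the 10 members. It was chosen after the windows had been seen. Only CYP26A1 and RARB among the 9 held it, each in 1 window, against 0.057% of all 35116 windows. The sites are shown with 6 bases on each side and the match in capitals, CYP26A1 read on the minus strand and RARB on the plus strand.
CYP26A1: caattaGTTCACCCAAAGTTCAtcttta
RARB: ggtaggGTTCACCGAAAGTTCActcgca

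The CYP26A1 match lies at chr10:93073803-93073818, ending 74 bases before the window's start site, and inside the first exon of another CYP26A1 transcript in GENCODE 29. The RARB match lies at chr3:25428211-25428226, ending 36 bases before its start site. The whole 250 bases upstream of that RARB start site (chr3:25428013-25428262, plus strand) are shown because the match sits in them, and they lie in an intron of a longer RARB transcript in GENCODE 29.
RARB upstream: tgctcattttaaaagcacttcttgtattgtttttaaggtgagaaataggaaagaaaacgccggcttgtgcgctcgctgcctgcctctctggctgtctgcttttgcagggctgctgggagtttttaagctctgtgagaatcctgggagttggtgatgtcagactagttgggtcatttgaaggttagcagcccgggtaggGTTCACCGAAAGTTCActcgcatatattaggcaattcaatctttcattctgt

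With the 3 further spellings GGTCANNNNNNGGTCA, GGTCANNNNNNGTTCA and GTTCANNNNNNGGTCA added, no window holding more than 1 of the 4 spellings, 0.174% of windows held a match and the members with one were again CYP26A1 and RARB. A match is a description of the letters, and the data hold no measurement of receptor binding.

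Positions are those of the table on GRCh38, each covering the whole gene. CYP26B1 lies on chromosome 2 (72129238 to 72148038, minus strand), RARA on 17 (40309180 to 40357643, plus), RARB on 3 (25174332 to 25597932, plus) and RARG on 12 (53210567 to 53232980, minus). RXRA lies on chromosome 9 (134317098 to 134440585, plus strand), RXRB on 6 (33193588 to 33200665, minus), CRABP2 on 1 (156699606 to 156705816, minus), DHRS3 on 1 (12567910 to 12618210, minus) and RDH10 on 8 (73294602 to 73325281, plus).

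RXRB was the most abundant, at 6.43 ± 0.522 FPKM over the 6 libraries (SD, n = 6), and its lowest library lay above the highest of every other member. CRABP2 at 3.97 ± 0.854 FPKM and RARG at 3.95 ± 0.643 FPKM could not be ordered, since CRABP2 was the higher in 3 of 6 libraries. RDH10 followed at 2.93 ± 0.247 FPKM, below RARG in all 6 libraries although their ranges overlapped. CYP26B1 at 1.55 ± 0.400 FPKM, RXRA at 0.840 ± 0.276 FPKM and RARA at 0.577 ± 0.109 FPKM came next, in that order within each of the 6 libraries. DHRS3 at 0.260 ± 0.0510 FPKM and CYP26A1 at 0.247 ± 0.193 FPKM overlapped, and RARB at 0.0112 ± 0.0102 FPKM was lowest in all 6 libraries.

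**Figure D1:**
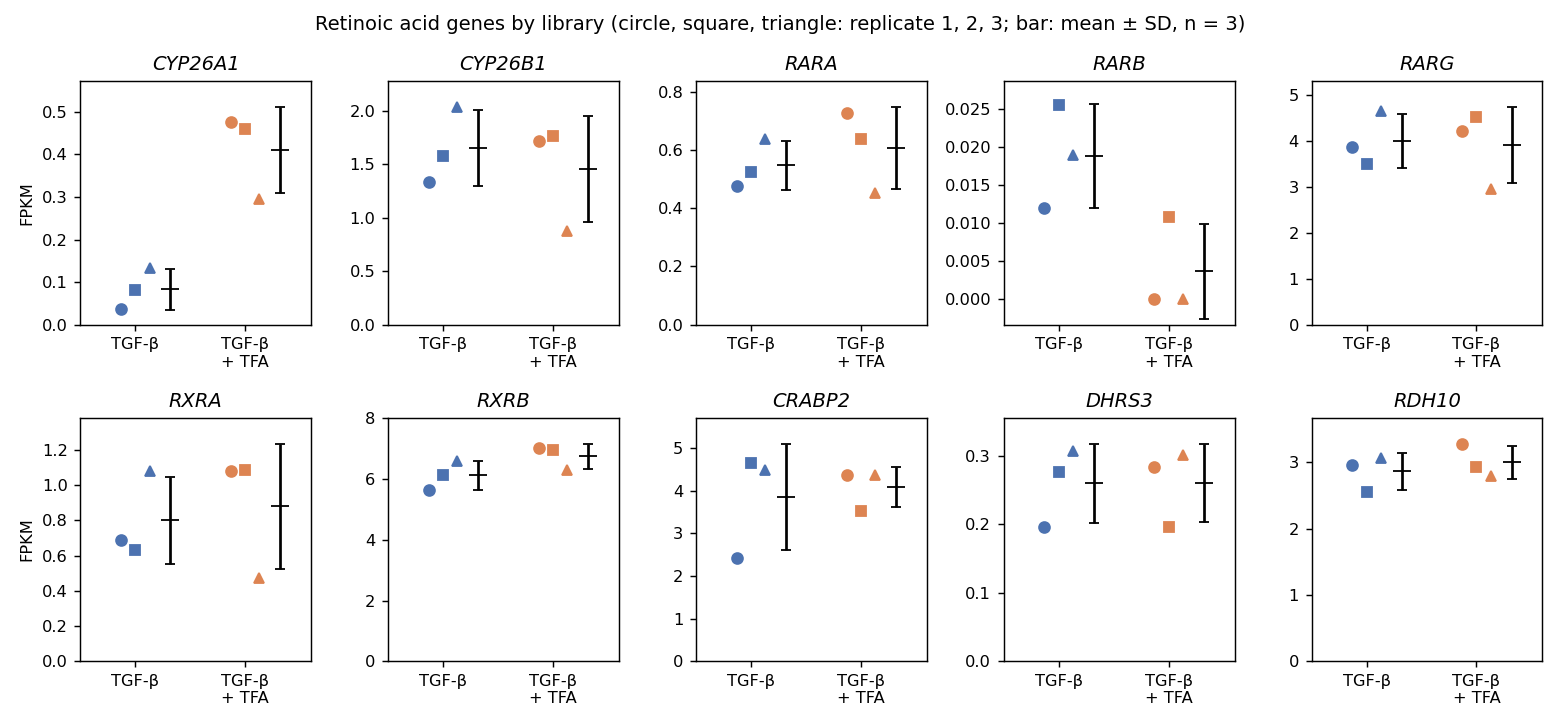
FPKM of the 10 members in each library, with circle, square and triangle for replicates 1, 2 and 3 of each group and the bar for mean ± SD (n = 3); each panel has its own linear axis, and the lower end of the RARB bar passes below 0. CYP26A1 lies at 0.0362 to 0.133 FPKM in the TGF-β libraries and at 0.295 to 0.477 FPKM with TFA added, without overlap, while CYP26B1, RARA, RARG, RXRA, RXRB, CRABP2, DHRS3 and RDH10 overlap between the groups on this scale.

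CYP26A1, the enzyme that clears retinoic acid (ENSG00000095596, chromosome 10, 93073475 to 93077885, plus strand, GRCh38), had 0.0362, 0.0810 and 0.133 FPKM in TGFb 1 to 3. With TFA added it had 0.477, 0.460 and 0.295 FPKM in TGFb_TFA 1 to 3. The groups did not overlap, and the lowest TFA value was in TGFb_TFA 3. The means were 0.0834 ± 0.0485 FPKM and 0.410 ± 0.1005 FPKM (SD, n = 3). Its estimated counts were 9, 18 and 30 with TGF-β and 97, 97 and 61 with TFA. The RNA was measured in bulk, so more cells with the transcript and more transcript per cell cannot be told apart.

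The fitted log2 fold change of CYP26A1 was 2.26 (SE 0.50; 95% interval 1.11 to 3.42), a ratio of 4.797 with an interval of 2.15 to 10.7. Among 18265 tested genes it stood at rank 13 by unadjusted p (0.00213, edgeR quasi-likelihood test) and at rank 66 by the size of a positive fold change. The gene was chosen with this comparison known, so nothing is read from these ranks. It was not called in the fit over all genes (adjusted p = 0.9997, Benjamini-Hochberg over all tested genes, quasi-likelihood test of edgeR), nor by DESeq2 (adjusted p = 0.0642). A single fragment probably added about 4 counts in this table, since 1032 to 1271 genes of a library had exactly 4 counts, while 601 to 685 had 3 and 345 to 396 had 5. On that reading CYP26A1 rested on about 2, 4 and 8 fragments with TGF-β and 24, 24 and 15 with TFA, so the size of the ratio is imprecise. These fragment numbers are rough. In a library 853 to 936 genes had exactly 1 count and 689 to 770 had exactly 2, which that reading does not account for.

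CYP26A1 shares 750 of its 2972 exon bases with an overlapping gene on its strand, AL358613 (ENSG00000285846), which had 15 counts in TGFb_TFA 1 and 0 in the other 5 libraries. Summing both genes, a choice made after seeing the data, gave a log2 fold change of 2.34 (SE 0.50). Without TGFb 1, the library with many genes at 0, the value was 1.91 (SE 0.39). Without TGFb 1 and TGFb_TFA 3 together it was 2.03 (SE 0.41), and with each library's trend along transcript length removed it was 2.24 (SE 0.48).

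Markers of fibroblasts were low in every library and higher in sum with TFA. Summed over 11 such genes they were at 0.0630 to 0.373 FPKM in the TGF-β libraries and at 0.464 to 2.40 FPKM with TFA. All 7 that were tested had a fitted value above 0, against 51.9% of all tested genes. In 3 of them (COL1A2, COL6A3 and PDGFRA) the groups did not overlap in CPM, against 4.58% of all tested genes that were higher with TFA. COL1A2 was at 0 to 1.345 CPM with TGF-β, with 0 in TGFb 1, and at 1.436 CPM or more with TFA. PDGFRA had 0, 0 and 4 counts with TGF-β and 11, 12 and 18 with TFA. It passed the filter on low counts only through the TFA libraries. Each of the other tested fibroblast genes also needed a TFA library to pass. The filter thus favoured values that were higher with TFA, and nothing is read from the shares above. COL1A1, PDGFRB, THY1 and FAP overlapped. COL3A1 and DCN, defining matrix genes of fibroblasts, had 0 counts in all TGF-β libraries and in TGFb_TFA 1, and LUM and POSTN each had 0 counts in 5 of the 6 libraries. Over TGFb 1 to 3 the fibroblast sum was 0.0630, 0.312 and 0.373 FPKM, with CYP26A1 at 0.0362, 0.0810 and 0.133 FPKM. Over TGFb_TFA 1 to 3 the sum was 0.464, 1.99 and 2.40 FPKM, with CYP26A1 at 0.477, 0.460 and 0.295 FPKM. The 8 endothelial markers summed to 1.55 to 1.99 FPKM in the TGF-β libraries and 2.04 to 2.38 FPKM with TFA, CDH5 being at 0 in 5 libraries. EGFL7 alone made up most of that sum, at 1.09 to 1.27 FPKM and 1.20 to 1.49 FPKM, which overlapped in FPKM though not in CPM. Of the 6 tested, 5 had a fitted value above 0, and CLDN5 was at -0.76 (SE 0.48). In 3 of the 6 (VWF, KDR and EGFL7) the groups did not overlap in CPM and were higher with TFA, against 4.58% of all tested genes. VWF and KDR had 0 counts in TGFb 1 and needed a TFA library to pass the filter on low counts. The 6 haematopoietic markers summed to 0.450 to 0.606 FPKM and 0.517 to 0.728 FPKM. Of the 4 tested, 3 had a fitted value above 0. Only CD74, with 0 counts in TGFb 3, did not overlap in CPM, and it was higher with TFA. Whether the levels of these markers bear on the CYP26A1 difference was not tested.

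CYP26B1, the other enzyme of the family measured here, clears retinoic acid with an overlapping specificity. It had 1.34, 1.58 and 2.03 FPKM in the TGF-β libraries and 1.71, 1.76 and 0.880 FPKM with TFA. The groups overlapped, and TGFb_TFA 3 held the lowest of the 6 values. The fitted log2 fold change was -0.17 (95% interval -0.76 to 0.41).

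CYP26A1 therefore made up a different part of the CYP26 transcripts in each group. It was 2.64%, 4.88% and 6.14% of the summed FPKM of CYP26A1 and CYP26B1 in TGFb 1 to 3. With TFA it was 21.7%, 20.7% and 25.1%. The summed level itself overlapped, at 1.37 to 2.17 FPKM in the TGF-β libraries and 1.17 to 2.22 FPKM with TFA, so CYP26B1 remained the main CYP26 transcript in every library.

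**Figure D2:**
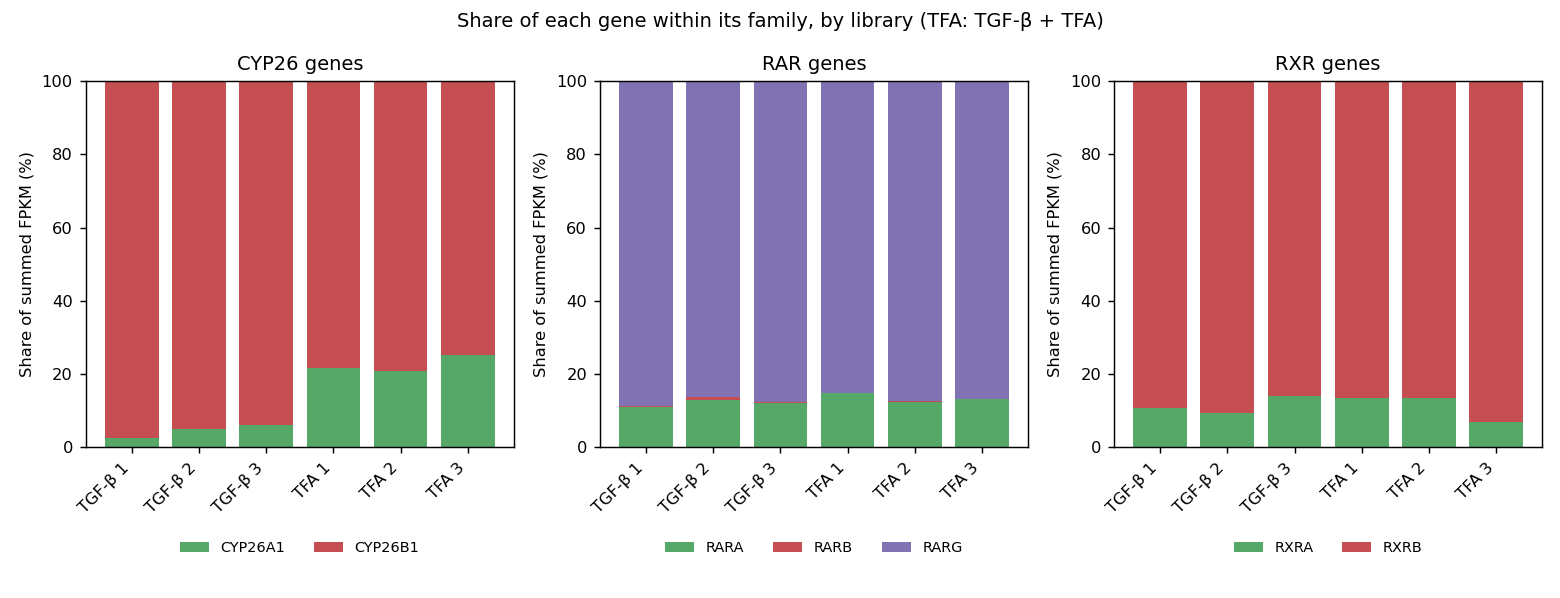
Share of each gene (%) in the summed FPKM of its family in each of the 6 libraries, for the CYP26, RAR and RXR genes described here. The CYP26A1 share is 2.64% to 6.14% with TGF-β and 20.7% to 25.1% with TFA added, whereas RARG and RXRB keep above 85% of their families in all 6 libraries.

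The receptors bind retinoic acid and switch target genes. Among the RAR genes, RARG was the main transcript, with 86.4% to 88.8% of the summed RAR level with TGF-β and 85.3% to 87.4% with TFA. RARG itself had 3.86, 3.49 and 4.64 FPKM in the TGF-β libraries and 4.22, 4.52 and 2.96 FPKM with TFA. The groups overlapped and TGFb_TFA 3 was again lowest, with a fitted log2 fold change of -0.02 (95% interval -0.39 to 0.36).

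RARA, the broadly expressed receptor, had 0.478, 0.526 and 0.640 FPKM in the TGF-β libraries and 0.728, 0.639 and 0.452 FPKM with TFA. Its groups overlapped too, and the fitted log2 fold change was 0.16 (95% interval -0.35 to 0.68). RARA shares 556 exon bases with RARA-AS1 and 291 with AC080112 on the other strand, and the sources used here do not give how strand was used in counting.

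RARB, the receptor gene that retinoic acid induces and that carries the same repeat as CYP26A1 upstream, was barely detected. It had 4, 7 and 5 counts with TGF-β and 0, 3 and 0 counts with TFA. On the rough reading of about 4 counts per fragment, that is 1 or 2 fragments per library at most. Its groups did not overlap in FPKM, with the TGF-β libraries the higher, which is the opposite order to CYP26A1. RARB was too low to enter the fit, and a difference could not be assessed at this depth.

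The RXR receptors are the partners that every RAR needs to bind DNA. RXRB had 5.64, 6.12 and 6.57 FPKM in the TGF-β libraries and 7.01, 6.95 and 6.28 FPKM with TFA. On the depth-scaled counts of the fit (CPM), RXRB was at 24.3 to 28.1 with TGF-β and 29.2 to 30.9 with TFA. The groups thus overlapped in FPKM through TGFb_TFA 3 and did not overlap in CPM. The fitted log2 fold change was 0.17 (95% interval -0.11 to 0.46), or 0.08 without TGFb 1 and TGFb_TFA 3. RXRB shares 244 exon bases with SLC39A7 on the other strand.

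RXRA had 0.688, 0.629 and 1.08 FPKM in the TGF-β libraries and 1.08, 1.09 and 0.472 FPKM with TFA. The groups overlapped, TGFb_TFA 3 being lowest and TGFb_TFA 2 highest. The fitted log2 fold change was 0.14 (95% interval -0.58 to 0.86). RXRA has 11083 exon bases in GENCODE 29, the most of the 10 members, and its lowest value was in TGFb_TFA 3, where the longest genes lay low. The part of transcript length in that value was not tested.

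CRABP2 delivers retinoic acid to RAR in the nucleus. It had 2.42, 4.65 and 4.49 FPKM in the TGF-β libraries and 4.37, 3.53 and 4.36 FPKM with TFA, so TGFb 1 alone stood low and the groups overlapped. Its fitted log2 fold change was 0.12 (95% interval -0.55 to 0.79), and -0.13 without TGFb 1.

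The retinol dehydrogenases set the supply of retinaldehyde, RDH10 by oxidising retinol and DHRS3 by reducing retinaldehyde back to it. RDH10 had 2.97, 2.55 and 3.07 FPKM in the TGF-β libraries and 3.28, 2.94 and 2.80 FPKM with TFA, a log2 fold change of 0.10 (95% interval -0.21 to 0.41). DHRS3, itself known as a gene that retinoic acid induces, had 0.196, 0.276 and 0.308 FPKM in the TGF-β libraries and 0.284, 0.196 and 0.302 FPKM with TFA. Both overlapped between the groups. The log2 fold change of DHRS3 was 0.05 (95% interval -0.76 to 0.86), and -0.34 without TGFb 1 and TGFb_TFA 3. RDH10 shares 278 exon bases with RDH10-AS1 on the other strand.

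**Figure D3:**
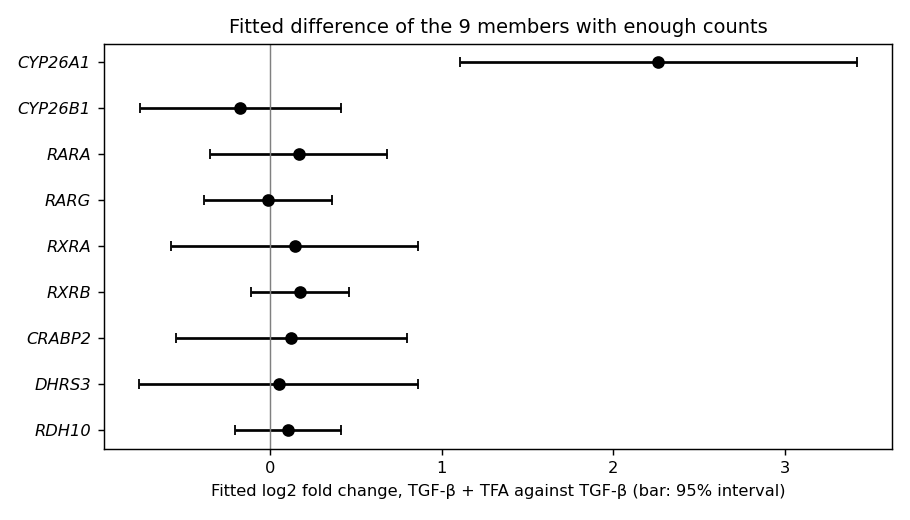
Fitted log2 fold change of TGF-β with TFA against TGF-β for the 9 members with enough counts to fit, with 95% intervals as bars. The interval of CYP26A1 runs from 1.11 to 3.42, and those of the other 8 hold 0. The genes were chosen with this comparison known and the intervals are unadjusted, so no test is read from them.

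Of the 10 members, 9 passed the filter on low counts. None of the 9 was called, where 0.0109% of all tested genes were called (2 of 18265, both higher with TFA). Groups that did not overlap in CPM were found for 2 of the 9, CYP26A1 and RXRB, both higher with TFA, against 7.91% of all tested genes in either direction, 4.58% higher and 3.33% lower. The median log2 fold change was 0.12 over the 9 and 0.01 over all tested genes. The other 8 all lay within 0.3 of 0 on the log2 scale, with -0.17 for CYP26B1 as the farthest. The adjusted p was 0.9997 for each of the 9 in edgeR. The same comparison was known when CYP26A1 was chosen, so nothing is read from its place among them.

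Other genes of the pathway were taken from 9 lists chosen by their known roles, 98 genes in all, of which 86 were found in the table and 73 were tested. Earlier results of these data were known when the lists were chosen, so the shares below are descriptions. None was called by edgeR, against 0.0109% of all tested genes, and none by DESeq2. At an unadjusted p under 0.05 there were 3 higher and 1 lower, 5.48% of the 73 against 1.83% of all tested genes (1.07% higher and 0.761% lower). Groups did not overlap in CPM in 8 genes that were higher with TFA and 1 that was lower, 12.3% of the 73 against 7.91% of all tested genes (4.58% higher and 3.33% lower). STRA6, among the higher genes in both shares, passed the filter on low counts only through the TFA libraries, which largely fixed its direction. The median log2 fold change was -0.03, with 34 of the 73 above 0, against 0.01 and 51.9% of all tested genes.

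Of the 4 retinaldehyde dehydrogenases that make retinoic acid, ALDH1A3 had the lowest unadjusted p. It had 0.626, 0.915 and 0.997 FPKM in the TGF-β libraries and 1.13, 1.42 and 1.22 FPKM with TFA. The groups did not overlap and TGFb 1 was lowest. The log2 fold change was 0.60 (SE 0.22; unadjusted p = 0.0279, adjusted p = 0.9997, Benjamini-Hochberg over all tested genes, quasi-likelihood test of edgeR), and 0.42 (SE 0.19) without TGFb 1. The other 3 enzymes of that list were lower in abundance, ALDH8A1 at -0.19 (SE 0.48) and ALDH1A2 at -0.96 (SE 1.11) on the log2 scale, with ALDH1A1 overlapping between groups as well.

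STRA6, the membrane receptor that takes up retinol and is itself known as a retinoic acid target, had 0, 3 and 0 counts with TGF-β and 15, 11 and 12 with TFA. The groups did not overlap, at no more than 0.0267 FPKM. STRA6 passed the filter on low counts only through the TFA libraries, so that order was largely fixed by the filter. Its unadjusted p was 0.0181 and its adjusted p 0.9997 (Benjamini-Hochberg over all tested genes, quasi-likelihood test of edgeR), and its few fragments give no reliable ratio. Among the 10 tested genes of uptake and storage, the abundant DGAT1, which esterifies retinol, was at -0.07 (SE 0.13) and RETSAT, a retinol saturase, at -0.18 (SE 0.15). LRAT, the main retinol esterifying enzyme, had 0 counts in TGFb 1 and 29 to 50 in the other 5 libraries.

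Retinol and retinaldehyde oxidoreductases beyond the members had a median log2 fold change of 0.14 over 9 tested genes, 7 of them above 0. Without TGFb_TFA 3 the median was -0.06, with 3 of the 9 above 0. RDH11, the most abundant, was at 27.3 ± 1.92 FPKM in the TGF-β libraries and 27.3 ± 0.682 FPKM with TFA (SD, n = 3). RDH14 was at 14.6 ± 0.430 FPKM and 16.3 ± 0.0929 FPKM, without overlap, with a log2 fold change of 0.19 (SE 0.13). AKR1B10, a retinaldehyde reductase, had 0.54 (SE 0.41).

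Of other enzymes that can oxidise retinoic acid, CYP2S1 had 2.14 ± 0.539 FPKM in the TGF-β libraries and 1.67 ± 0.283 FPKM with TFA (SD, n = 3), and its fitted log2 difference was -0.33 (SE 0.24). CYP3A5 had 0.20 (SE 0.16). The CYP3A5 groups did not overlap in CPM but did in FPKM, and the intervals of both genes held 0.

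FABP5, a carrier that takes retinoic acid to PPARD instead of RAR, was the most abundant retinoid binding gene, at 79.4 ± 11.4 FPKM in the TGF-β libraries and 91.9 ± 22.8 FPKM with TFA (SD, n = 3). Its log2 fold change was 0.27 (SE 0.25), and that of PPARD was -0.0043 (SE 0.18). FABP5 thus exceeded CRABP2 in every library. CRABP1, a cytoplasmic binding protein, had 0, 54 and 48 counts with TGF-β and 55, 55 and 74 with TFA, so its groups lay apart by 1 count, with TGFb 1 at 0 and a log2 fold change of 0.98 (SE 1.05).

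Partners of RXR and the competing COUP-TF receptors had a median of 0.00 over 8 tested genes. NR2F2, a COUP-TF receptor that can occupy retinoic acid response elements, was at 11.7 ± 1.46 FPKM and 10.8 ± 2.74 FPKM (SD, n = 3; log2 fold change -0.09, SE 0.17). PPARG, a fatty acid receptor that pairs with RXR, was at 5.55 ± 0.565 FPKM and 6.59 ± 0.141 FPKM without overlap in CPM (0.29, SE 0.14). NR2F1 had -0.23 (SE 0.21).

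Cofactors that RAR recruits lay close to 0. Of 9 corepressors 8 were below 0, with a median of -0.08, TBL1XR1 at -0.07 (SE 0.18), HDAC3 at 0.04 (SE 0.13) and NRIP1 at -0.25 (SE 0.25). Of 10 coactivators 8 were below 0, with a median of -0.10, PRMT1 at 0.01 (SE 0.19), MED1 at -0.04 (SE 0.32) and KAT2B at -0.28 (SE 0.24). The lowest FPKM was in TGFb_TFA 3, where long genes lay low, for 7 of the 9 corepressors and 9 of the 10 coactivators. Without that library the direction turned, with 4 of 9 corepressors below 0 (median 0.07) and 4 of 10 coactivators below 0 (median 0.15). With each library's length trend removed, all 9 and all 10 were below 0 (medians -0.14 and -0.17, against -0.04 for all genes). All 19 overlapped between the groups. None had an unadjusted p under 0.05 in the edgeR quasi-likelihood test.

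Genes known to be induced by retinoic acid were measured as a further readout, leaving out the members. Of 18 tested, 12 were above 0 with a median of 0.09, and none was called. LAMB1, a laminin chain, had -0.25 (SE 0.29) and GPRC5A, an orphan receptor first found as retinoic acid induced, -0.26 (SE 0.17).

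HIC1, a transcriptional repressor named here after its values were seen, had 9, 19 and 20 counts with TGF-β and 31, 64 and 25 with TFA, at 1.41 on the log2 scale (SE 0.56; unadjusted p = 0.0377 in the edgeR quasi-likelihood test) and 0.96 without TGFb_TFA 2. Known targets thus gave values on both sides of 0, beside that of CYP26A1.

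**Figure D4:**
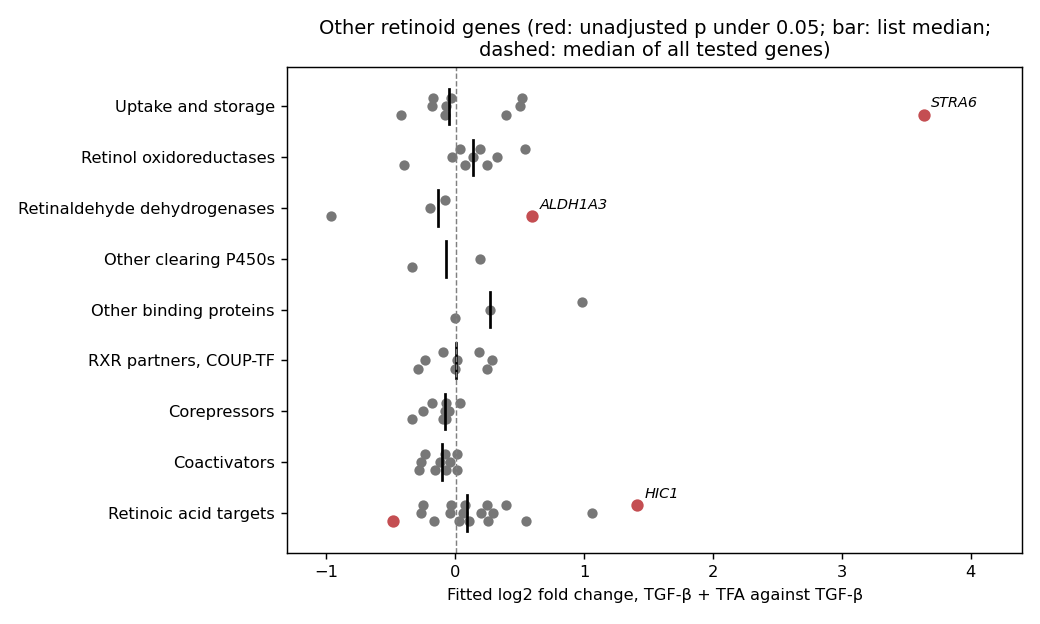
Fitted log2 fold changes of the 73 tested retinoid genes outside the members, by list, with the black bar for the list median and the dashed line for the median of all tested genes. Red points had an unadjusted p under 0.05, with STRA6, ALDH1A3 and HIC1 labelled, and none of the 73 was called.

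Genes whose level followed that of CYP26A1 across the 6 libraries were listed by Pearson's r of log2 CPM, over 10674 genes with a mean of at least 1 FPKM in the higher group. The first was GDF15, a stress-induced cytokine (r = 0.979), at 10.2, 12.4 and 13.8 FPKM in the TGF-β libraries and 17.7, 16.9 and 15.1 FPKM with TFA. EGFL7, an endothelial secreted factor, followed (r = 0.976), then VIM, the intermediate filament vimentin (r = 0.971), AC131392 (r = 0.967) and FAM107B (r = 0.957). All 5 had their lowest FPKM in TGFb 1 or TGFb 2 and their highest in TGFb_TFA 1 or TGFb_TFA 2. These r values describe 6 points that share library, depth and treatment. Within the set, r with CYP26A1 was 0.915 for RXRB, 0.674 for RARA, 0.467 for RDH10, 0.465 for CRABP2, 0.381 for RXRA, 0.219 for DHRS3, 0.192 for RARG and 0.0082 for CYP26B1.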

How the data were processed

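For each library the authors deposited FPKM values and estimated counts by gene. Named in the submitters' processing notes, without roles, are GRCh38, StringTie 1.3.4d, HISAT2 2.0.4 and cutadapt 1.9. Per the labels' protocols, libraries were made from poly(A) RNA with dUTP strand marking and unique molecular identifiers, and the sources used here do not say whether these served to remove duplicates.

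Members were matched by gene name. Estimated counts, deposited as whole numbers, were tested over all genes in edgeR 4.0.16 (R 4.3.3), by a 2-sided quasi-likelihood test between the groups after filterByExpr and TMM scaling. Calls needed a Benjamini-Hochberg p under 0.05 over the 18265 genes kept. Intervals are 95%, and SE is the log2 fold change over the root of F. Alternatives were DESeq2 1.42.0, its size factors in edgeR, no filter, limma-trend (limma 3.58.1) on log2(FPKM + 0.5), 0.1 or 1, a replicate block, left-out libraries, length offsets and counts divided by 4. The fit was also run on simulated counts, in which only genes more abundant than CYP26A1 were changed. That run says nothing about genes as low as CYP26A1.

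Members and lists were chosen with earlier results of these data known. Named from each list were the 2 most abundant tested genes, the 1 further gene with the lowest p and any called. The 5 genes most like CYP26A1 were also named. Genes of other roles are named where 0 counts or groups that do not overlap are described. Some genes of the lists are not reported here by name.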

Additional observations from a re-analysis of the deposited data

How the results depend on the processing

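The log2 fold change of CYP26A1 was above 0 in all 15 alternatives that could give it and not called in any, with adjusted p from 0.0642 (DESeq2) to 0.99998 (replicate block, edgeR). Leaving out 1 library gave 1.91 (without TGFb 1) to 2.74 (without TGFb 3). Limma-trend on log2(FPKM + 0.1), added after seeing the data with a mean FPKM of at least 0.1, gave 1.49. Under the planned minimum of 0.5 FPKM CYP26A1 and DHRS3 were not tested.

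Genes called over the whole table numbered 2 higher and 0 lower, against 13 higher and 2 lower by DESeq2, 1 higher with a replicate block, 1 to 3 higher without 1 library (3 when TGFb_TFA 3 is left out, and 1 when any of TGFb_TFA 1, TGFb_TFA 2 and TGFb 2 is), and 1 lower without TGFb 1 and TGFb_TFA 3. At an unadjusted p under 0.05 edgeR gave 195 higher and 139 lower. The retinoid lists had 0 genes called in every alternative run (at an unadjusted p under 0.05, 4 in edgeR).

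Signs were kept in all alternatives for RARA, RXRB and RDH10, and in 16 of 17 for CYP26B1, 15 of 17 for RXRA, 14 of 17 for RARG and CRABP2 and 11 of 14 for DHRS3. The replicate block gave 2.39 for CYP26A1. Same-numbered libraries had correlations of -0.13 to 0.04 and 0 of 6 correlated best with their own number. Pairing by number was thus not seen, but so few libraries cannot exclude it, and the labels give same-numbered libraries the same hours. Low counts limit the values of RARB, STRA6 and CYP26A1. The directions of the corepressor, coactivator and oxidoreductase lists turned without TGFb_TFA 3, a comparison added after seeing the data. The causes of these shifts were not tested.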

Other observations

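Genes with no count in TGFb 1 and at least 10 in all other 5 libraries numbered 338, against 29 (TGFb 2), 27 (TGFb 3), 24 (TGFb_TFA 1), 28 (TGFb_TFA 2) and 45 (TGFb_TFA 3). Among the retinoid genes and cell type markers examined they included CRABP1, LRAT, COL1A2, KDR, THY1 and VWF. TGFb 1 also held the lowest CYP26A1 level of the 6 libraries. The total of TGFb 1, 68745953 estimated counts, was the highest of the 6.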
